A study of Rattus norvegicus with 3 samples.

Results

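The mitochondrial solute carriers are the proteins of the SLC25 family, and their transcripts were examined in rat kidney. All genes whose name in the scanner files starts with Slc25a were taken, which gave 41 of the 16996 named genes on the array, read by 56 probes on 92 spots. Each gene was represented by 1 probe, the one above background on most arrays and, among those, the brightest. A probe was called above background if 50% or more of its spots reached a signal-to-noise ratio of 3.

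The rats were male spontaneously hypertensive rats (SHR) on a wistar background, aged 8 to 10 weeks and weighing 280 to 330 g. SHR develop high blood pressure with age, and the control rats belonged to the same strain. HBMP is a hydrolysate of protein from the blue mussel, Mytilus edulis. The 10 rats of the water control group received about 3 mL of water by mouth, the low dose group 10 mg/kg/day of HBMP and the high dose group 20 mg/kg/day in a like volume, each for 28 days. Kidney RNA from 4 rats of a group was mixed in equal amounts and hybridised to 1 array, so each group is 1 pool. The animals of a pool cannot be told apart, and no statistical test of a dose was possible. Values below describe 3 arrays, whose number limits the precision, and a size rule of 2-fold stands in for a test.

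Carriers of this family sit, with few exceptions, in the inner mitochondrial membrane. Each is built of 3 repeats of a helix pair and mostly exchanges one small solute for another. They bring ADP, phosphate, substrates and cofactors into the matrix and let ATP, citrate and other products out. In the kidney tubule, which is rich in mitochondria, they link oxidation of fatty acids and amino acids to the ATP used for transport, and to ammonia and glucose production.

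Of the 41 carriers, 32 were above background on all 3 arrays, 2 on some arrays and 7 on none. Those on none were the ornithine carriers Slc25a2 and Slc25a15, the glutamate carrier Slc25a18, the uncoupling-like Slc25a27, the folate and FAD carrier Slc25a32, Slc25a41 of the ATP-Mg group and Slc25a47. Their values carry no order and no fold is given. Among all probes, 50.6%, 52.1% and 54.7% were above background on the arrays of the control, the low dose and the high dose.

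A kidney origin was checked by markers. All 13 proximal tubule markers were above background on the 3 arrays, with summed intensities of 191189 for the control pool, 141759 for the low dose and 139975 for the high dose. All 5 thick ascending limb markers and all 4 podocyte markers were above background as well, while of 7 skeletal muscle markers only Tnni2 was. The tubule segments differed between arrays. All 5 thick ascending limb markers were below control at the low dose (median -0.68) and all 5 were higher at the high than at the low dose (median 0.78). At the high dose 2 were below control and 3 above (median 0.07). The sums were 45790, 33271 and 39033, mostly from Umod, which differed from control by -0.40 and -0.33. The 6 collecting duct markers had medians of 0.58 and 0.60 at the low and high dose and sums of 16067, 38302 and 24811. At each dose 4 were above control and 2 below. Those below were Scnn1b (-0.26 and -0.11) and Scnn1g (-0.28 and -0.37). Aqp2, at log2 levels of 13.59, 14.92 and 14.20, made up most of the sums. The part of these segments in the carrier values was not tested. Markers of brown fat differed between the arrays and are given with the uncoupling proteins below. In bulk RNA, fewer cells of a type and less RNA per cell cannot be told apart.

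Promoter sequences are shown for 3 carriers, from RefSeq's table of the GRCr8 assembly, which held 34 of the 41 genes. Each is the 250 bases before the listed start, 5′ to 3′ on the gene's strand. Slc25a24 (chr2:199449175-199449424, plus strand) is shown because it had the highest difference from control at the low dose. Slc25a25 (chr3:36116582-36116831, minus strand) and Slc25a33 (chr5:165502974-165503223, minus strand) are shown because they are the 2 carriers of the 34 that hold TGACGTCA, the cyclic AMP response element. The listed starts of Slc25a25 and Slc25a33 lie inside the span of the gene, so a longer transcript starts further upstream. Capitals mark matches to TGACGTCA, GGGCGG (the GC box), CCAAT and CACGTG (the E-box), or to their reverse complements.
Slc25a24: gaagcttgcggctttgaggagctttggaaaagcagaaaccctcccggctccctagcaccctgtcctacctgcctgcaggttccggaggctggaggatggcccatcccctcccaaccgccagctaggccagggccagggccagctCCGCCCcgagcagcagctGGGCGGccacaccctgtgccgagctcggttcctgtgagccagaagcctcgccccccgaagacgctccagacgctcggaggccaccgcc
Slc25a25: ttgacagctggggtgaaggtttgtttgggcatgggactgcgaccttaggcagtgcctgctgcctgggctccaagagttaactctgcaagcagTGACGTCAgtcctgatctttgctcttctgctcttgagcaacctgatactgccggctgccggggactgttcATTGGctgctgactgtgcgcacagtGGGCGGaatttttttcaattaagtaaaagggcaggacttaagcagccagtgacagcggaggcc
Slc25a33: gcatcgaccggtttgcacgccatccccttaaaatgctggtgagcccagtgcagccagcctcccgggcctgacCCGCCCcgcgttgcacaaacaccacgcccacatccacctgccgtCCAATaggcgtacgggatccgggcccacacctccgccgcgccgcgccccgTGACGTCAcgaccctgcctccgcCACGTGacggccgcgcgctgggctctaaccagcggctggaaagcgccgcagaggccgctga

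TGACGTCA, which reads the same on both strands, begins 158 bases before the listed start of Slc25a25 and 84 before that of Slc25a33. It occurred in 5.88% of the 34 carrier promoters and in 1.59% of 33469 RefSeq promoters of the same length, searched on both strands. GGGCGG occurred in 20 of 34 (58.8%, against 30.5% of all promoters) and CCAAT in 19 of 34 (55.9%, against 34.0%). TATAAA, the TATA box, was found in 1 carrier promoter (2.94%, against 12.9%), and CACGTG in 2 (5.88%, against 5.59%). A match is a string of letters and does not show a factor at the site.

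Spot intensities below are net of background and scaled so that the 75th percentile is the same on each array, and differences are on the log2 scale. Of the 41 carriers, 38 were read from a single spot. Among all probes printed on 10 spots, the median SD between spots of the log2 difference was 0.12 for each dose against control and 0.08 between doses. For low dose minus control it was 0.19 in probes with a log2 level under 6 and 0.10 in those at 8 and over. This SD is the technical spread between spots of a probe, and holds no error between arrays and no spread between rats.

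**Figure D1:**
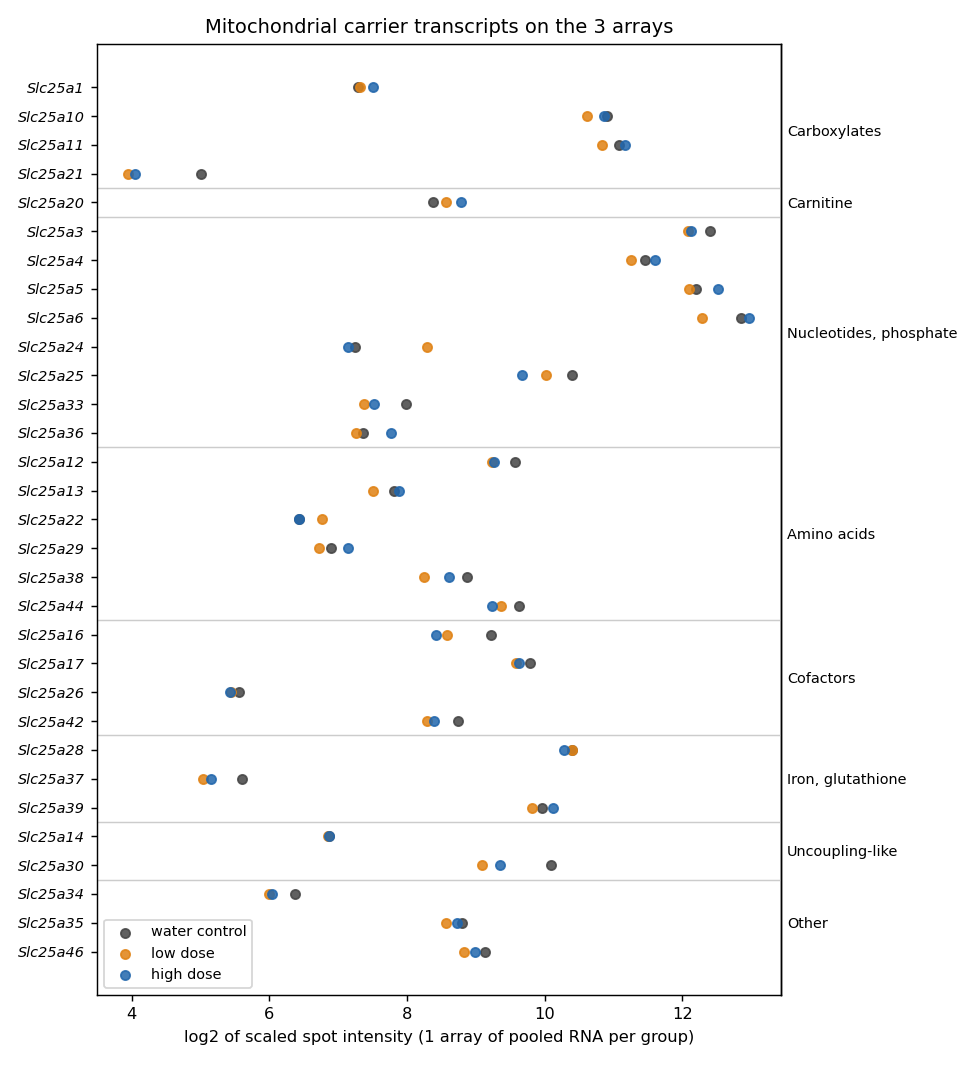
Level of 31 of the 32 carriers above background on all arrays, grouped by substrate. The x axis is the log2 of the scaled spot intensity and each point is 1 array of pooled RNA (grey, water control; orange, low dose; blue, high dose); levels of different genes come from different probes and are not comparable. The low dose point of Slc25a24 stands to the right of the other points in its line, and both dose points of Slc25a21 and Slc25a30 stand to the left.

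The comparison of the low dose with control asked how carrier transcripts stood in kidneys of rats given 10 mg/kg/day. Slc25a24 was the only carrier at least 2-fold higher, and Slc25a21 and Slc25a30 were at least 2-fold lower. By the same rule 2.54% of 9323 named genes were higher and 0.772% lower. Of the 32 carriers, 26 lay below control and 6 above, with a median of -0.26 and a range from -1.06 to 1.05. Among the 9323 genes 65.2% lay below control and 34.8% above, with a median of -0.11, so the array as a whole was shifted the same way to a lesser extent. At 1.5-fold, 1 carrier was higher (6.78% of genes) and 5 were lower (4.74% of genes), the others being Slc25a16, Slc25a38 and Slc25a33. With normexp, a model-based background correction, only Slc25a30 of the 5 stayed 1.5-fold lower, at -0.89. Slc25a16 was then at -0.53, Slc25a38 at -0.49, Slc25a33 at -0.45 and Slc25a21 at -0.37.

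At the high dose, 20 mg/kg/day, no carrier was 2-fold higher or lower than control, where 0.866% of 9474 named genes were higher and 0.158% lower. The carriers ran from -0.97 to 0.41 with a median of -0.11. Of the 32, 21 lay below control and 11 above, beside 57.5% below, 42.5% above and a median of -0.05 over all genes. Carriers were bright more often than other genes, with 59.4% at a mean log2 level of 8 or more against 43.6%. Among the genes that bright, 2632 of 4031 lay below control at the high dose, and their median was -0.11, the same median as the carriers. At the low dose 2699 of 4029 did, with a median of -0.12, and between doses 1950 of 4032 were higher at the high dose, their median being -0.01. The largest values below control were those of Slc25a21, Slc25a16, Slc25a30 and Slc25a25, all at least 1.5-fold lower. Slc25a21 was short of 1.5-fold with normexp, at -0.38, and so was Slc25a16 with the mean over its probes, at -0.38. No carrier was 1.5-fold higher, beside 3.64% of genes, and 4.13% of genes were 1.5-fold lower.

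Set directly against the low dose, the high dose array had 24 of 32 carriers higher and 8 lower, with a median of 0.13, beside 54.6% higher, 45.4% lower and a median of 0.03 over 9700 genes. Slc25a24 was the only carrier at least 2-fold apart, and was lower at the high dose, where 1.55% of genes were 2-fold lower and 0.464% 2-fold higher. The highest value was 0.69, for Slc25a6, the 1 carrier at least 1.5-fold higher at the high dose (4.04% of genes). In the authors' deposited table it was 0.48, under 1.5-fold. Slc25a24 was also the 1 carrier at least 1.5-fold lower (5.65% of genes). The 2 dose comparisons share the control array, so their values are given side by side and are not independent.

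**Figure D2:**
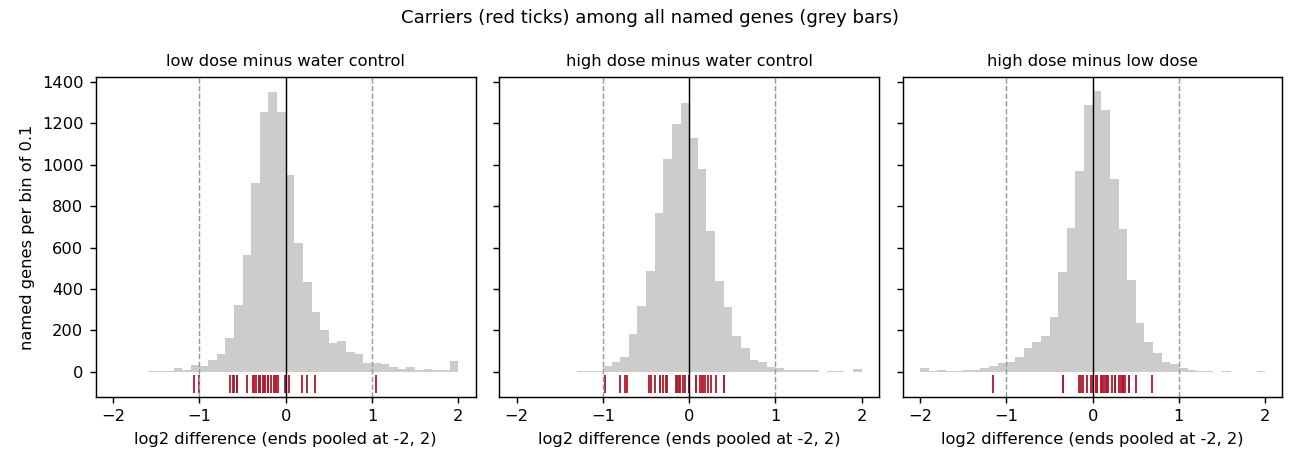
Log2 differences of the 32 measured carriers (red ticks) below the distribution over all named genes above background on both arrays (grey bars, genes per bin of 0.1, ends pooled at -2 and 2). The 3 panels are low dose minus control, high dose minus control and high dose minus low dose; dashed lines mark 2-fold. Of the red ticks, 26 lie left of 0 in the first panel and 24 lie right of 0 in the last.

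Beyond 2 times the spot SD of probes of like brightness, 20 carriers were lower and 2 higher on the low dose array, where 46.0% of all genes passed in either direction. For the high dose 12 were lower and 4 higher (42.3% of genes), and between doses 14 were higher and 5 lower at the high dose (53.1% of genes). The limit was lower for bright probes, and carriers were bright more often, so the shares over all genes are not matched for brightness. Passing this limit says that 2 arrays differed by more than the spots of 1 probe do. It says nothing of the dose, and the limit holds no error between arrays.

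**Figure D3:**
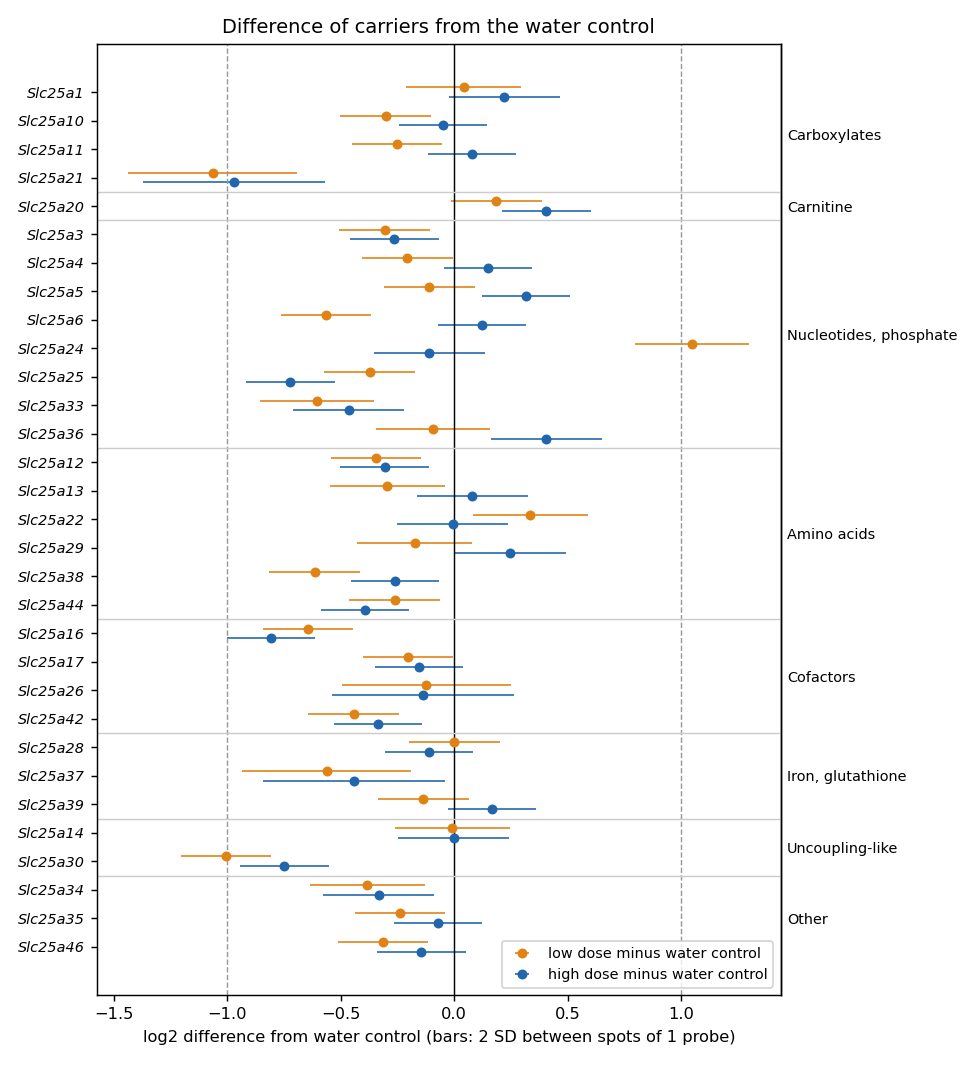
Log2 difference of the same 31 carriers from the water control at the low dose (orange) and the high dose (blue), by substrate. Bars are 2 times the median SD between spots of 10-spot probes of like brightness, a technical error; dashed lines mark 2-fold. Slc25a24 lies at 1.05 at the low dose and -0.11 at the high dose, while Slc25a21 and Slc25a30 lie far below 0 at both.

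Nucleotide and phosphate carriers supply the ATP synthase and return its product to the cytosol. Of the 8 measured, 7 were below control at the low dose (median -0.26), and 4 were below and 4 above at the high dose (median 0.01). Slc25a24 and Slc25a25 are calcium-regulated carriers that exchange ATP-Mg for phosphate and so set the size of the matrix adenine nucleotide pool. At the low dose one lay above control and the other below, and at the high dose both lay below.

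Slc25a24 had an intensity of 152 for control, 314 for the low dose and 141 for the high dose. The low dose array alone stood high, at 2.07 times the control, while the high dose array was 2.23-fold below the low dose array. The value rests on 1 spot, and the other Slc25a24 probe was not above background on any array. The low dose difference was 0.84 with normexp and 1.07 in the authors' deposited table.

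Most fibroblast and macrophage markers also stood higher on the low dose array than on the other arrays. The summed intensity of 6 fibroblast markers was 3354 in the control pool, 10637 at the low dose and 3677 at the high dose. The 5 of them above background (Lum was not, on any array) were each at least 2-fold higher at the low dose, with a median difference of 1.42 there and 0.32 at the high dose. For the 6 macrophage markers, all above background, the sums were 2306, 5003 and 2337, with medians of 1.05 and 0.20. Of these, Csf1r went the other way, at -0.28 and 0.37, and Emr1 was above control at both doses, at 0.64 and 0.40. Their part in the Slc25a24 value was not tested.

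Slc25a25 had intensities of 1343, 1037 and 814 in the order control, low dose, high dose, an order kept for every carrier from here. It was below control at both doses, and lowest at the high dose, 1.65-fold below control. Its probe was printed on 10 spots, which gives this carrier a technical error of its own. The spot differences were -0.37 ± 0.08 (SD, 10 spots) at the low dose and -0.72 ± 0.04 at the high dose. All 10 spots were below control at both doses, with a high dose range from -0.79 to -0.64, and all 10 were lower at the high than at the low dose (-0.35 ± 0.07).

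The ADP/ATP carriers Slc25a4, Slc25a5 and Slc25a6 exchange cytosolic ADP for matrix ATP. Slc25a6 had intensities of 7402, 5001 and 8057. The low dose array was the low one, 1.48-fold below control and 1.61-fold below the high dose array. In the authors' deposited table the low dose difference was -0.32, in place of -0.57. Slc25a5 stood at 4711, 4367 and 5863, and its high dose array was the high one, with differences of -0.11 and 0.32 from control. A second Slc25a5 probe gave -0.34 and 0.03. The transcript of the Slc25a6 probe appears in the hit list of the Slc25a5 probe, so signal of these near copies cannot be fully separated. Slc25a4, the form of heart and muscle, differed from control by -0.21 and 0.15. For all 3 the high dose array was above the low dose array, by 0.35, 0.43 and 0.69 for Slc25a4, Slc25a5 and Slc25a6.

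Slc25a3, which brings in the phosphate for ATP synthesis, lay at 5391, 4358 and 4491, lower on both dose arrays by -0.31 and -0.26. Slc25a33 and Slc25a36 carry pyrimidine nucleotides, used for mitochondrial DNA and RNA. Slc25a33 read 252, 166 and 183, so both dose arrays were below control, by -0.61 and -0.46. Its dimmer second probe gave -0.54 at the low dose and 0.04 at the high dose, so only the low dose value was shared by the probes. Slc25a36 read 163, 153 and 217, with the high dose array the high one at 0.41 above control. A dimmer probe of the same gene gave -0.37 at the high dose, the opposite sign, and the direction for Slc25a36 is not settled by these data.

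Carboxylate carriers move citric acid cycle intermediates. Of the 4 measured, 3 were below control at the low dose (median -0.28), and 2 at the high dose (median 0.02). All 4 were higher on the high than on the low dose array, by 0.09 to 0.33. The lowest, 0.09 for Slc25a21, was within 2 times the spot SD and was -0.28 in the authors' deposited table. Slc25a21, which carries oxoadipate from lysine and tryptophan breakdown, had intensities of 32.2, 15.4 and 16.5. Both dose arrays were low, 2.09-fold below control at the low dose and 1.96-fold at the high dose. It was a dim probe on 1 spot, and with normexp the differences were -0.37 and -0.38 in place of -1.06 and -0.97. Slc25a1, which exports citrate for fatty acid synthesis, read 155, 160 and 181, with differences of 0.04 and 0.22. The dicarboxylate carrier Slc25a10 (-0.30 and -0.05) and the oxoglutarate carrier Slc25a11 (-0.25 and 0.08), part of the malate-aspartate shuttle, completed the class.

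Slc25a20 exchanges acylcarnitine for carnitine and admits long-chain fatty acids to the matrix for oxidation. It read 334, 380 and 442, highest at the high dose. It was above control at both doses, 1.14-fold and 1.33-fold, from 1 spot. The carnitine acyltransferases that work beside it differed otherwise, with Cpt1a at -0.35 and -0.30 and Cpt2 at -0.04 and -0.29. Both were read on 10 spots.

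Amino acid carriers feed the urea cycle, the malate-aspartate shuttle and ammonia production. Of the 6 measured, 5 were below control at the low dose (median -0.28) and 4 at the high dose (median -0.13). Slc25a38, which imports glycine for heme synthesis, had intensities of 466, 305 and 389. Both dose arrays were below control, the low dose array by 1.53-fold and the high dose array by 1.20-fold. Slc25a44, a carrier of branched-chain amino acids, read 788, 657 and 599.5, and its 10 spots gave -0.25 ± 0.13 at the low dose and -0.39 ± 0.21 at the high dose, with every spot below control.

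Slc25a12 and Slc25a13 are the calcium-stimulated aspartate-glutamate exchangers. Slc25a12 read 761, 599 and 615. Its 10 spots gave -0.34 ± 0.12 and -0.30 ± 0.09, all below control at both doses, and 0.03 ± 0.06 between the doses, which is within the spot error. Of those spots, 1 lay in a corner of the control array with weak signal. Slc25a13 read 223, 182 and 236, low on the low dose array alone, and its 2 probes differed from each other by 0.01 at the low dose. The glutamate carrier Slc25a22 read 86.4, 109 and 85.9, the one amino acid carrier above control at the low dose, at 0.33. Slc25a29, a carrier of basic amino acids, read 119, 105 and 141, with differences of -0.17 and 0.25.

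**Figure D4:**
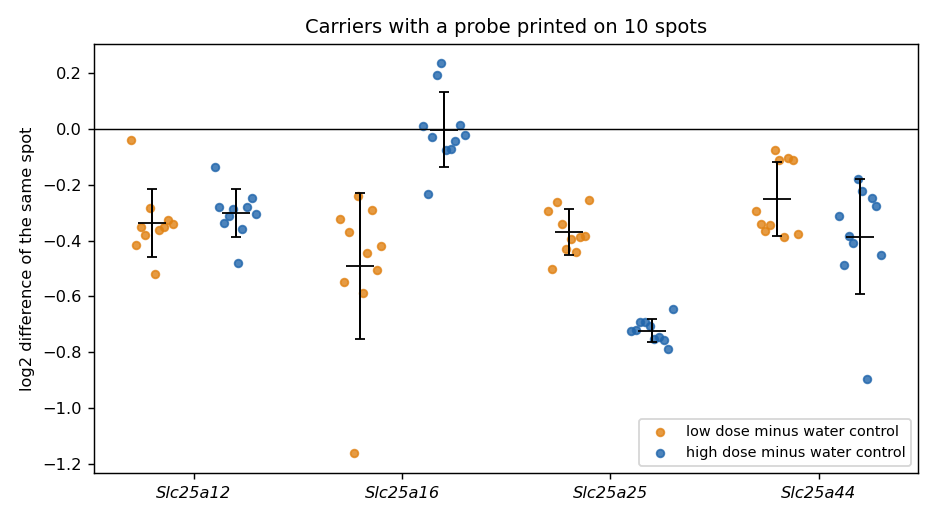
Log2 difference from control for each spot of the 4 carrier probes printed on 10 spots. Points are spots (orange, low dose; blue, high dose), horizontal lines the mean and bars 1 SD between spots; spots of 1 array are technical repeats. All 10 spots of Slc25a12, Slc25a25 and Slc25a44 lie below 0 at both doses, while the Slc25a16 probe has 10 below at the low dose and 6 at the high dose.

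Cofactor carriers supply coenzyme A, S-adenosylmethionine and related compounds. Of the 5 measured, 4 were below control at each dose, with medians of -0.20 and -0.15. Slc25a16, linked to coenzyme A transport, had intensities of 598, 383 and 342 from its brightest probe. Both dose arrays were low, by 1.56-fold and 1.75-fold. Its probes did not give the same high dose value. The brightest gave -0.81, a dimmer one -0.32, and the probe with 10 spots -0.00 ± 0.13. At the low dose the 3 probes lay between -0.64 and -0.46. Slc25a42, the coenzyme A carrier, read 426, 313 and 337 (-0.44 and -0.34), and Slc25a17, a carrier of the peroxisome, -0.20 and -0.15. Slc25a26, the S-adenosylmethionine carrier, differed by -0.12 and -0.14 from a dim probe.

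Iron and glutathione carriers serve iron-sulfur cluster and heme assembly and protection from oxidation. The mitoferrins Slc25a37 and Slc25a28 import iron. Slc25a37 read 48.4, 32.8 and 35.7, with both dose arrays below control by -0.56 and -0.44. It was a dim probe on 1 spot. The differences were -0.25 and -0.30 with normexp, and -0.70 and -0.55 in the authors' deposited table. Slc25a28 read 1346, 1346 and 1245, a difference of 0.00 and -0.11. A dimmer second probe of Slc25a28 gave -0.06 and 0.08, the opposite sign at the high dose. Slc25a39, a glutathione importer, differed by -0.14 and 0.16. Its relative Slc25a40 was above background on the low dose array only, at 14.5, and read 1.32-fold lower on the high dose array. The control spot was slightly brighter though not above background, with low dose minus control at -0.05. A second probe, above background on no array, gave 0.55 for high dose minus low dose, the opposite sign. These spots lie near the floor, and the direction for Slc25a40 is not settled by these data. A fold from a dim spot uses the higher of its own value and the lowest level above background on its array. For Slc25a40 and Slc25a45 that was the dim spot's own value, so the folds are plain ratios and not bounds.

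Slc25a30, the kidney mitochondrial carrier protein, is related in sequence to the uncoupling proteins, and its own solutes are thought to be sulfur anions. Its intensities were 1091.5, 544 and 649.96. Both dose arrays stood low, 2.01-fold below control at the low dose and 1.68-fold at the high dose, from 1 spot. The low dose value sat at the 2-fold limit and was -0.89 with normexp and -0.99 in the authors' deposited table. Proximal tubule markers were also lower on both dose arrays, with medians of -0.40 and -0.48 and 12 of 13 below control at each dose. Their part in the Slc25a30 value was not tested. Slc25a14, an uncoupling-like carrier of brain, read 116 on each of the 3 arrays, with differences of -0.01 and -0.00.

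The carriers without a settled solute were Slc25a34, Slc25a35 and Slc25a45, with the outer membrane member Slc25a46, which takes part in mitochondrial fusion. The 3 measured on all arrays were below control at both doses. Slc25a34 read 82.9, 63.6 and 65.8 (-0.38 and -0.33), Slc25a35 differed by -0.24 and -0.07, and Slc25a46 by -0.31 and -0.14. Slc25a45 was above background on the high dose array only, at 30.2. It read 1.31-fold higher there than on the control array and 1.65-fold higher than on the low dose array, from 1 dim spot. Its difference of 0.39 from control was within 2 times the spot SD of probes that dim (0.40).

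Members of the family under other names included Ucp1, Ucp2 and Ucp3. Ucp1, the proton channel of brown fat, differed most, with log2 levels of 5.24, 11.10 and 9.12 from 10 spots, high on both dose arrays. Ucp2, a broadly expressed relative, was above control by 0.83 and 0.66, and Ucp3 was above background on 1 array only. Cidea (2.80 and 1.46) and Cox8b (3.82 and 2.08), markers of brown fat, were also above control, while Ppargc1a, a transcriptional coactivator on the same list, lay at -0.51 and 0.33. Of 6 such markers, Ucp1 included, 4 were above background on every array, Elovl3 and Dio2 on none. The summed intensities were 729.74, 6885 and 2408. Of 8 adipocyte markers, 4 were above background on the control array and 6 on each dose array, and the 4 measured throughout had medians of 1.84 and 1.89. Adipoq, the hormone adiponectin, differed by 3.22 and 3.02, and Fabp4, a fatty acid carrier, by 4.02 and 3.19, while Pck1, which kidney tubule also makes, lay at -0.06 and -0.09. The summed intensities of the 8, in which Pck1 is included, were 4194, 6884 and 5922. Their part in the carrier values was not tested. Mtch1 and Mtch2, outer membrane members of the same fold, differed by 0.01 and -0.28 at the low dose and by 0.31 and -0.01 at the high dose.

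Other mitochondrial genes gave the setting for these values. Of 10 measured inner membrane transporters outside the family, such as the pyruvate carrier subunits Mpc1 and Mpc2, 8 were below control at the low dose and 4 at the high dose (medians -0.22 and 0.05). Of 11 outer membrane and import genes 9 and 8 were below control (medians -0.25 and -0.05), and Vdac1, the main outer membrane pore, was at -0.59 and -0.54. None of these was 2-fold apart in either direction.

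Among 16 citric acid cycle genes, 13 were below control at the low dose (median -0.18) and 8 at the high dose (median -0.00), and 14 were higher at the high than at the low dose (median 0.17). Idh3a, a subunit of isocitrate dehydrogenase, gave the largest value between doses, at 0.88. Of 22 enzymes that make or use the solutes of the carriers, 19 were below control at the low dose (median -0.20) and 16 at the high dose (median -0.09). Oat, the ornithine aminotransferase, was the only one past 2-fold, with differences of -1.08 and -0.38. The low dose medians of these 4 lists lay between -0.25 and -0.18, beside -0.26 for the carriers and -0.11 for all genes.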

How the data were processed

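Kidney RNA pools of 3 groups were measured on 1 slide of Agilent rat arrays with 1 dye, per the labels. The authors deposited GenePix Pro 6.1.0.4 scanner files with spot intensity at 532 nm less a software background of 39 or 40, the signal-to-noise ratio and flag as a score, and the share of saturated pixels as a percent, per the file headers. Agilent Feature Extraction is named in the submitters' processing notes. The high dose file's header names a mouse design, but its gene names, probe names and positions were identical to those of the other files. A log2 table deposited by the authors had a median of 4.77 in each column. Its columns correlated most with their own arrays (0.947 for control, 0.949 for the low dose, 0.955 for the high dose), and its scaling is not given in these sources. A further high dose array named in a header was not analysed here.

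Control spots, 6, 5 and 6 bright spots not found by the software and 135, 131 and 70 non-uniform spots (mean over 1.5 times the median or the reverse) were left out (in the order control, low dose, high dose); none belonged to a carrier. Net means were averaged over the spots of a probe, scaled to an equal 75th percentile (factors 1.15, 0.964 and 0.914), set to at least 1 and taken to log2 (Python 3.11.15, pandas 2.3.3, numpy 2.4.6). Normexp used limma 3.58.1 in R 4.3.3, and quantile normalization was done in Python. Known fold changes, put into bright probes of the control array with simulated noise, tested a copy of the scaling and 2-fold rule. The other steps were not tested this way. The planned analysis assumed Feature Extraction flags, and the signal-to-noise ratio was used in their place.

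A gene counted where it was above background on both arrays and 2-fold apart. Alternatives were the background correction, the normalization, the signal-to-noise limit, the probe rule, the spot filters, the fold and the deposited values. Carriers named with values were the 5 highest and 5 lowest of each comparison, those past 2-fold, those above background on some arrays and the largest of each class; the rest were added for completeness, and 1 measured carrier, kept in the counts and medians, is not reported here by name. Members, lists and rules were chosen with earlier results of these data known.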

Additional observations from a re-analysis of the deposited data

How the results depend on the processing

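No paired analysis was possible because each group was 1 array, and leaving out a replicate was not possible for the same reason. Over all settings 28, 28 and 24 of the 32 carriers kept their sign for low dose minus control, high dose minus control and high dose minus low dose. Of 144 summary values under an alternative, 123 stayed close and 21 moved. Of 762 values of single carriers, 63 moved. A single value counted as close could still change sign or shift. For low dose minus control, Slc25a26 went from -0.12 to 0.03 with the deposited values, and Slc25a21 from -1.06 to -0.88 with quantile normalization. The carriers that changed sign in some setting were all under 2-fold in the comparison concerned, such as Slc25a16 for high dose minus low dose, at 0.15 with the mean over probes in place of -0.16. For low dose minus control, the 1 carrier 2-fold higher became 0 with normexp. The 2 carriers 2-fold lower became 0 with normexp, with quantile normalization and with the deposited log2 values, and 1 with a signal-to-noise limit of 5, with non-uniform spots kept, without the weak corner of the control array and with centring by tile of the array, an alternative chosen after seeing the data. At 1.5-fold 5 were lower. For high dose minus control, 1 was 2-fold higher and 2 lower when carriers not above background were kept, and 4 lower at 1.5-fold. For high dose minus low dose, 1 was higher and 2 lower with all carriers kept, 1 was higher at 1.5-fold, and 0 were lower with normexp; carriers below 0 were 5 with the mean over probes and 13 with all carriers kept. With normexp the median of the same-fold genes under other names was 0.195 at the low and 0.290 at the high dose in place of 0.42 and 0.49, and that of the outer membrane and import genes was -0.113 at the low dose in place of -0.25. The cause of these moves was not tested. Precision is limited by 1 array per group and by carriers on 1 spot, and dim probes such as that of Slc25a21 moved most.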

Other observations

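Some genes on the array carry older names but match current SLC25 symbols through RefSeq accessions, and were outside the rule by name. Mcart1 is Slc25a51, the mitochondrial NAD carrier. Its log2 levels were 9.38 for control, 9.64 for the low dose and 9.59 for the high dose, above control at both doses by 0.26 and 0.22 from 1 spot. Mcart1l (Slc25a53), RGD1559928 (Slc25a43) and LOC691448 (Slc25a54) were not above background on any array.

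Gldc, the glycine cleavage enzyme, differed by 0.26 at the low dose and -0.45 at the high dose. It was higher on the low than on the high dose array, unlike Slc25a38, the glycine carrier, at -0.61 and -0.26. This pair was picked after the values were seen. Amt and Shmt2, from the same list of enzymes, did not share the direction of Gldc between doses. High dose minus low dose was 0.37 for Amt and 0.08 for Shmt2, beside -0.70 for Gldc and 0.35 for Slc25a38.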
